A study of Mus musculus with 5 samples.

Results

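Polycomb repressive complex 1 (PRC1) was followed through 10 of its subunit genes in mouse embryonic stem (ES) cells with and without Dicer, the enzyme that makes mature microRNAs from their hairpin precursors. The members were named by function, with earlier results of these data known: Pcgf1, Pcgf2, Pcgf3, Pcgf5, Pcgf6, Ring1, Rnf2, Cbx2, Cbx7 and Phc1. A gene was used where an array probe set carried its symbol alone, and all 10 were found among 19938 genes so named. RNA came from asynchronous cultures of wild-type ES cells (WT, 3 arrays) and of Dicer-deficient ES cells (labelled KO, 2 arrays). Cells of both genotypes grew off feeders in serum and LIF medium mixed equally with N2B27 and 2i medium, and each array is 1 culture, described in the series as a biological replicate. The early G1 cultures of the same series and a further asynchronous KO culture were not analysed here. The labels name no parental line, clone or deleted exon, so loss of Dicer and any other difference between the lines cannot be told apart.

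PRC1 is a ubiquitin ligase that marks histone H2A and helps to keep developmental genes silent in ES cells. Every form of the complex holds RING1 or RNF2 as its catalytic subunit, paired with 1 PCGF protein that decides which partners join. PCGF2 and its relative BMI1 build the canonical complex, in which a CBX chromobox protein reads the histone mark left by PRC2 and a PHC protein clusters the complexes. PCGF1, PCGF3, PCGF5 and PCGF6 build variant complexes, which carry RYBP or YAF2 in place of a CBX protein and reach chromatin by other routes.

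Among the members, 4 of 10 passed the test between genotypes. Pcgf5 was 2.02-fold higher in Dicer-deficient cells, while Pcgf2 was 1.82-fold, Cbx7 1.42-fold and Phc1 1.39-fold lower. PCGF5 belongs to a variant complex and the other 3 to the canonical one, but canonical Cbx2, variant Pcgf1, Pcgf3 and Pcgf6, and the catalytic Ring1 and Rnf2 did not pass, and no difference between the forms of the complex was tested. The test was limma's moderated fit over all 19938 genes with Benjamini-Hochberg adjustment at 0.05. It called 17.1% of all genes, 8.48% as higher and 8.6% as lower. A refit of the 11189 genes above the median of all probe sets, all 10 members among them, called 3660 genes and again 4 members. The median log2 change of the 10 members was 0.0175, beside 0.0083 over all genes, so the members did not shift together. The arrays of the genotypes did not overlap for the 4 called members and overlapped for the other 6, and 39.9% of all genes showed no overlap. In such bulk cultures, less RNA per cell and fewer cells that express a gene cannot be told apart.

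The start regions of the 4 called members are shown because these are the genes whose signal differed. Start regions take part in setting transcription, and whether the changes arose in transcription was not tested. Each window is the RefSeq start on GRCm38.p6 with 250 bases before it and 50 after, read 5′ to 3′ on the gene's own strand. Capitals mark short factor motifs searched on both strands: the GC box (GGGCGG), the CCAAT box, the E-box (CACGTG, its own reverse complement) and the core of ETS factor sites (CCGGAA). The Pcgf5 window is chr19:36348079-36348378 on the plus strand. The Pcgf2 window, chr11:97699599-97699898, the Cbx7 window, chr15:79932597-79932896, and the Phc1 window, chr6:122340178-122340477, lie on the minus strand. Pcgf5 has 3 starts in the table, of which the outermost is printed, and the Pcgf2 and Cbx7 starts lie inside the span that the gene table gives those genes.
Pcgf5: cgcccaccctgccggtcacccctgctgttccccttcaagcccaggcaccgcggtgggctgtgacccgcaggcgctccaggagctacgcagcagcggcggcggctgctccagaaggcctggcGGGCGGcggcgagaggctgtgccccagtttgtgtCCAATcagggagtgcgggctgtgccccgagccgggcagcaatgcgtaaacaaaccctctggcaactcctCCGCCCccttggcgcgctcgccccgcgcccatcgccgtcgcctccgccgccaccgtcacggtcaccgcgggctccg
Pcgf2: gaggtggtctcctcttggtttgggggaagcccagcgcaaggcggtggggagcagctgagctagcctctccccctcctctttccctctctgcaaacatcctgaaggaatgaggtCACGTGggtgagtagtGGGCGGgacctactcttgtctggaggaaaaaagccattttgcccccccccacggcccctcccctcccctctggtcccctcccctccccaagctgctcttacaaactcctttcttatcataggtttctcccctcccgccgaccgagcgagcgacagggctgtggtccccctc
Cbx7: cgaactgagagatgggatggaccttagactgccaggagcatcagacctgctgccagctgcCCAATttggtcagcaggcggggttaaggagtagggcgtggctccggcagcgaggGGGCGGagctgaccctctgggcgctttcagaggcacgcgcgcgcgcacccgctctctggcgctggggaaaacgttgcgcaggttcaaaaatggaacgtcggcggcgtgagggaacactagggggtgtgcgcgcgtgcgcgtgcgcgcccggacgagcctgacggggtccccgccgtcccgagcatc
Phc1: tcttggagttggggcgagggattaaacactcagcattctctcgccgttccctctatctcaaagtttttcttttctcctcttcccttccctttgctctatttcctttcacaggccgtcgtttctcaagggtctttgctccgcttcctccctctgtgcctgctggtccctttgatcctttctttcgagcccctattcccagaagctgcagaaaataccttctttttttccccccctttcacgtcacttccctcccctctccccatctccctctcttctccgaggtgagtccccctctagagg

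The 4 windows differ in base composition. The printed Pcgf5 window holds 34 CG dinucleotides and the Cbx7 window 33, more than 92.3% and 91.4% of all 32851 windows. Those of Pcgf2 and Phc1 hold 10 and 9, close to the median of 7 over all windows. The Pcgf5 windows not printed hold 5 and 35, and which start these cells use was not measured. CG-rich starts are the sites that KDM2B, the DNA-binding partner of PCGF1, is known to bind. GC boxes occur in the windows of Pcgf5 (2), Pcgf2 (1) and Cbx7 (1), and in 35.7% of all windows. A CCAAT box occurs once in each of the Pcgf5 and Cbx7 windows and in 37.4% of all. The Pcgf2 window holds 1 E-box, a motif present in 7.15% of all windows. None of the 4 windows holds the ETS core, found in 14.9% of all, and the Phc1 window holds none of the 4 motifs. Among the uncalled members, Ring1 had 37 CG dinucleotides, Rnf2 30, Pcgf3 23 and Pcgf6 22. Windows for Pcgf1 and Cbx2 were not used here. Rising and falling members thus both included CG-rich starts, and a match to a motif is a description of these letters only.

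**Figure D1:**
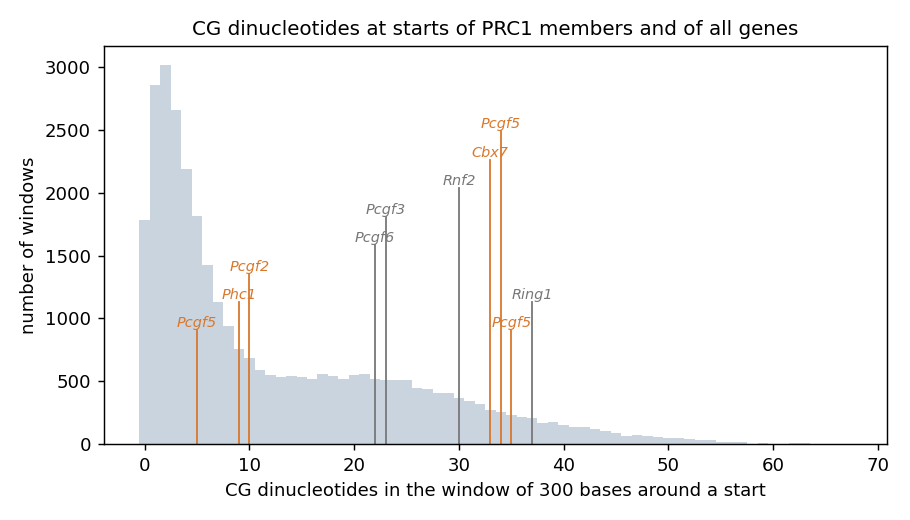
Number of RefSeq start windows (vertical axis) against the CG dinucleotides each holds (horizontal axis), for all 32851 windows as bars. Lines mark the 10 windows of the PRC1 members, with called members in orange and the others in grey; line height only spaces the names. The outermost Pcgf5 window and Cbx7 lie near 33 to 34, Pcgf2 and Phc1 at 9 to 10.

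Array medians ran from 5.39 to 5.45; precision is limited by having 3 and 2 arrays. Dicer1 signal lay between 8.82 and 8.85 in wild-type cells and was 7.20 and 6.84 in the Dicer-deficient cultures (3.52-fold lower, limma adjusted p = 0.000129). How far the probe set covers the deleted part is unknown, which limits this as a check of genotype. ES cell markers were all 10 above the median of all probe sets in both genotypes, including Pou5f1, Nanog and Sox2. No member was near the bottom of the scale: the lowest signal of any member on any array was 6.34, against a median of 5.404 over all probe sets.

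Ring1 and Rnf2, the catalytic subunits, carry the ligase activity of all PRC1 forms. Rnf2, the main ligase of ES cells, had log2 signals of 8.49, 8.40 and 8.12 in wild-type cultures and 8.33 and 8.49 in Dicer-deficient ones. The Dicer-deficient values fell inside the wild-type range, which at 0.37 was the widest of the 10 members. Its log2 change was 0.07 with a 95% interval from -0.21 to 0.36 (limma adjusted p = 0.793). Ring1 read 6.68, 6.82 and 6.86 in wild type and 6.88 and 6.79 without Dicer. The groups overlapped, with a change of 0.05 and an interval from -0.16 to 0.25 (limma adjusted p = 0.813). The direction of both changes turned when single arrays were left out, so neither has a settled sign.

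Pcgf2 (also known as Mel18) supplies the PCGF protein of canonical PRC1. Its signal was 8.61, 8.46 and 8.44 in the wild-type cultures and 7.81 and 7.47 in the Dicer-deficient ones. Both Dicer-deficient values lay below all 3 wild-type values, the nearest pair 0.63 apart, and at 0.34 they stood further from each other than for any other member. The log2 change was -0.86 (standard error 0.117, 95% interval -1.13 to -0.59, limma adjusted p = 0.00248), and 1.14% of all genes fell more. Pcgf2 passed in every fit that dropped a single array (limma adjusted p from 0.0172 to 0.046), with changes of -1.03 without Dicer-deficient array 1 and -0.69 without array 2.

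Pcgf5 pairs with RING1 or RNF2 in a variant complex that it shares in composition with PCGF3, and which is known for silencing through the noncoding RNA Xist. Its signal was 6.34, 6.47 and 6.38 in wild type and 7.49 and 7.33 in Dicer-deficient cultures. The nearest arrays of the groups were 0.86 apart, the widest gap of the members, while arrays within a genotype spanned 0.13 and 0.16. The log2 change was 1.01 (standard error 0.0876, 95% interval 0.81 to 1.22, limma adjusted p = 0.000375). Of all genes, 1.51% rose more. The call held without each array in turn (limma adjusted p from 0.00557 to 0.0259).

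Pcgf3, the closest relative of Pcgf5 among the members, gave 7.84, 7.80 and 7.76 in wild-type cells and 7.83 and 8.02 in Dicer-deficient cells. One Dicer-deficient array lay inside the narrow wild-type range and the other above it, and the change of 0.13 did not pass (95% interval -0.08 to 0.33, limma adjusted p = 0.446). The intervals of Pcgf3 and Pcgf5 do not overlap, although the difference between their changes was not tested. Pcgf1, which works with KDM2B and BCOR at CG-rich promoters, read 6.76, 6.53 and 6.88 against 6.71 and 6.60. Its values mixed across genotypes, with a change of -0.07 (95% interval -0.33 to 0.20, limma adjusted p = 0.793). Pcgf6, which works with MGA, MAX and L3MBTL2 and is known for silencing germline genes, read 8.62, 8.52 and 8.54 against 8.50 and 8.61. Its change of -0.005 was the smallest of the members (95% interval -0.19 to 0.18, limma adjusted p = 0.981). Pcgf1 and Pcgf6 took either sign under other settings.

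Cbx7, the main chromobox protein of canonical PRC1 in ES cells, had signals of 8.60, 8.48 and 8.39 in wild type and 7.96 and 8.0 without Dicer. The Dicer-deficient arrays agreed within 0.04 and lay at least 0.39 below every wild-type array. The log2 change was -0.51 (standard error 0.0885, 95% interval -0.72 to -0.30, limma adjusted p = 0.00716). With 1 Dicer-deficient array left the size stayed near this, -0.49 without array 1 and -0.53 without array 2, but the call was lost (limma adjusted p = 0.100 and 0.0835). Against a change of at least 1.2-fold it did not pass either (limma treat adjusted p = 0.152).

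Cbx2, a chromobox protein that compacts chromatin and is known to rise as ES cells differentiate, read 7.62, 7.62 and 7.53 in wild type and 7.62 and 7.64 in Dicer-deficient cells. The values overlapped within 0.11, and the change of 0.04 had a 95% interval from -0.14 to 0.22 (limma adjusted p = 0.823). The intervals of Cbx2 and Cbx7 do not overlap, and the difference between their changes was not tested.

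Phc1, whose SAM domain lets canonical complexes polymerize, had signals of 10.01, 9.98 and 9.79 in wild type and 9.38 and 9.53 without Dicer. All Dicer-deficient values lay below the wild-type ones, the nearest pair 0.26 apart, the smallest gap among the 4 called members. The log2 change was -0.47 (standard error 0.0983, 95% interval -0.70 to -0.24, limma adjusted p = 0.0154), and 5.11% of all genes fell more. This call was the least firm: it failed on dropping the first (limma adjusted p = 0.0673) or second (0.0833) wild-type array, the first (0.17) or second (0.0888) Dicer-deficient one, and against a 1.2-fold minimum (0.327). The change itself stayed between -0.55 and -0.40 as each array was left out.

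**Figure D2:**
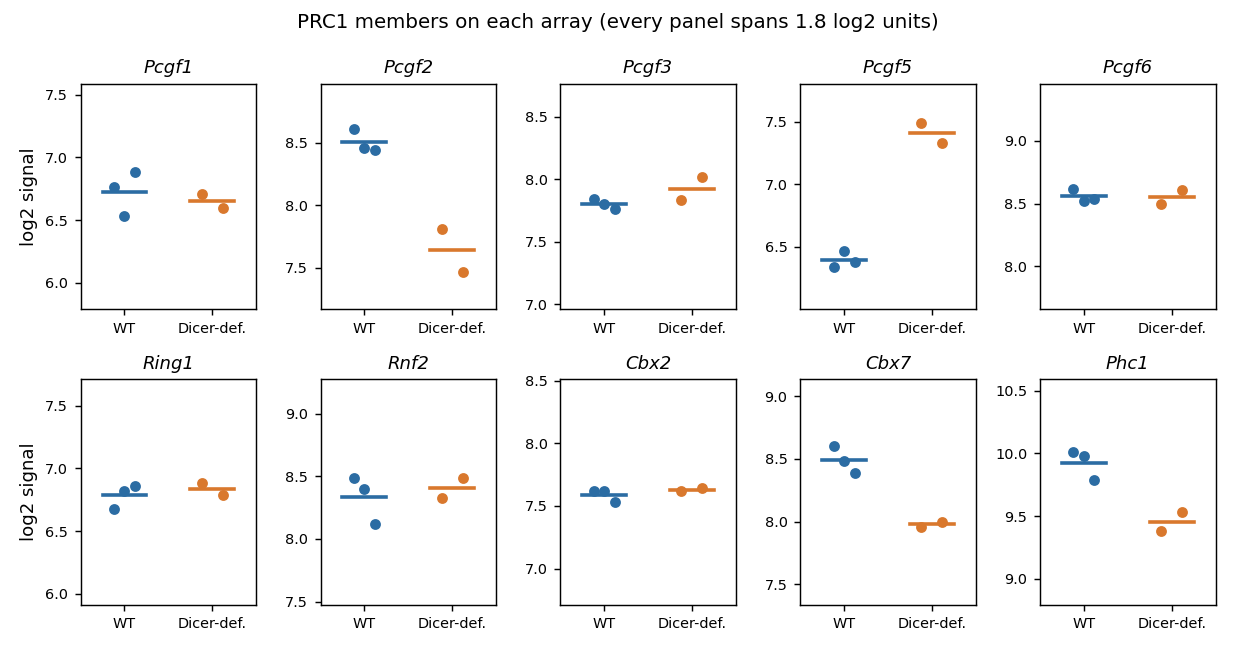
Log2 signal (vertical axis) of each PRC1 member on each array, wild type in blue (3 arrays) and Dicer-deficient in orange (2 arrays), with a bar at each group mean. Panels span the same number of log2 units around different centres, so distances can be compared and levels between genes cannot. The groups stand apart for Pcgf2, Pcgf5, Cbx7 and Phc1 and overlap in the other 6 panels.

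The remaining core subunits, outside the members, did not pass. Of 8 listed, 6 had a probe set of their own: Bmi1, Cbx8, Phc2, Phc3, Rybp and Yaf2. None was called by limma, against 17.1% of all genes. In the refit of genes above the median of all probe sets, 0 of 6 core subunits and 3660 of 11189 genes were called. An unadjusted p under 0.05 was found for 3, all of them higher: Cbx8, Rybp and Yaf2. How many of all genes reach that unadjusted level was not counted, so such counts here and below have no background beside them. The median change was 0.24 and all 6 changes were positive, from 0.04 for Phc3 to 0.33 for Rybp. Bmi1, the PCGF2 relative that can take its place in canonical PRC1, read 7.02, 6.73 and 6.80 in wild type and 7.02 and 7.08 in Dicer-deficient cells. These values overlapped at the top of the wild-type range (change 0.20, 95% interval -0.04 to 0.44, limma adjusted p = 0.271). Rybp, the subunit of variant complexes that stimulates the ligase, read 8.72, 8.54 and 8.31 against 8.85 and 8.86, with a limma adjusted p of 0.115. Cbx8, another canonical chromobox protein, read 6.16, 6.42 and 6.35 against 6.55 and 6.63. Both stood above all wild-type arrays without passing the test (Cbx8 limma adjusted p = 0.102), and 1 core subunit passed when the arrays were quantile normalized again.

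**Figure D3:**
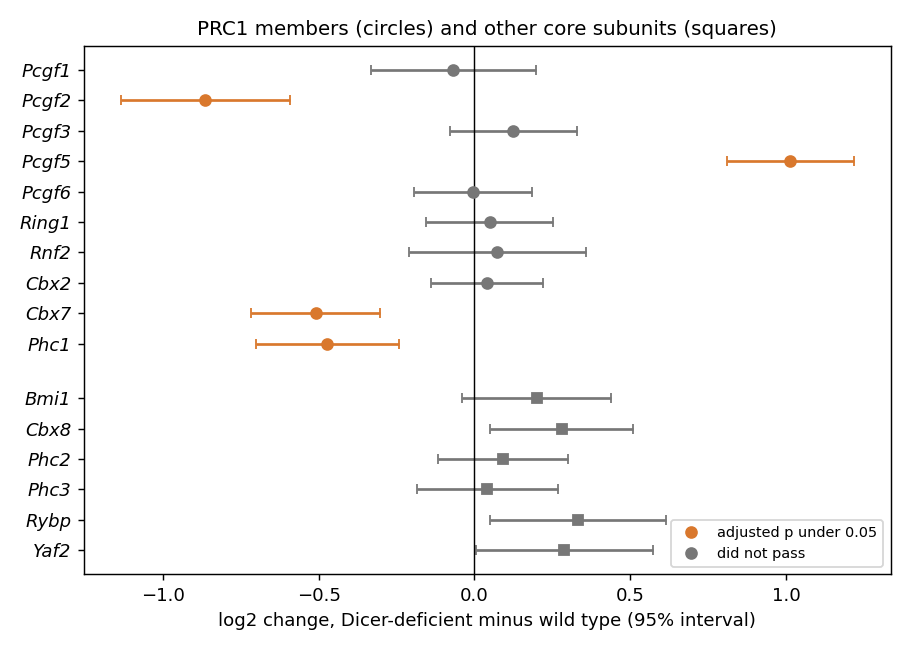
Log2 change, Dicer-deficient minus wild type (horizontal axis), with limma's 95% interval for the 10 PRC1 members (circles) and 6 other core subunits (squares). Orange genes passed an adjusted p of 0.05: Pcgf5 at 1.01 to the right, Pcgf2 at -0.86, Cbx7 at -0.51 and Phc1 at -0.47 to the left.

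Partner proteins that join PRC1 moved both ways. Of 22 measured, 4 rose and 2 fell in limma (27.3% called, against 17.1% of all genes). In the refit of genes above the median of all probe sets, 7 of 20 partners and 3660 of 11189 genes were called. E2f6 and Max, DNA-binding partners in the PCGF6 complex, rose by 0.48 and 0.47 on the log2 scale. E2f6 read 7.10, 7.12 and 7.05 in wild type and 7.50 and 7.63 without Dicer, and Max 8.47, 8.44 and 8.26 against 8.88 and 8.83. Neither set of values overlapped. Kdm2b, the CG-binding partner of PCGF1, fell (-0.51), as did Csnk2a2, a casein kinase subunit found with PCGF3 and PCGF5 (-0.46). The other 2 called were Cbx3, a heterochromatin protein found with PCGF6, and Auts2, which joins the PCGF3 and PCGF5 complexes, at 0.31 and 0.33.

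These partner calls rested on few arrays, and 0 passed against a 1.2-fold minimum in limma treat. E2f6 did not pass once Dicer-deficient array 2 was dropped (limma adjusted p = 0.0725). For Max and Csnk2a2 the same held of wild-type array 2 and of each Dicer-deficient array (limma adjusted p from 0.0529 to 0.135). Kdm2b and Cbx3 passed only with wild-type array 3 as the dropped one, with limma adjusted p from 0.131 to 0.314 and from 0.12 to 0.21 in the other fits. Auts2 passed in none of the 5 (0.0549 to 0.273). Cbx3 also failed with the mean of its probe sets (0.0875), and Auts2 with an intensity trend (0.0639). The list held 3 calls without wild-type array 1, and 1, 1 and 0 without wild-type array 2, Dicer-deficient array 1 and array 2.

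Enzymes that remove ubiquitin from histone H2A counter PRC1. The list also held Asxl1, Asxl2 and Asxl3, which encode cofactors of BAP1 and not enzymes. None of the 10 genes measured was called by limma, against 17.1% of all genes. In the refit of genes above the median of all probe sets, 1 of 8 was called, higher, and 3660 of 11189 genes were. At an unadjusted p under 0.05 there were 3, namely Asxl3 and Usp3 higher and Usp22 lower. Bap1, the catalytic subunit of the main complex of this kind, had a change of -0.18 (limma adjusted p = 0.323). PRC2, which lays down the histone mark that CBX proteins read, had 3 of 12 genes higher and 1 lower (33.3% called, against 17.1% of all genes). In the refit of genes above the median of all probe sets, 4 of 12 PRC2 genes and 3660 of 11189 genes were called. At an unadjusted p under 0.05 the main fit had 3 higher and 4 lower, and with array weights 3 of each were called. Aebp2, an accessory subunit, read 8.34, 8.16 and 8.13 in wild type and 9.29 and 9.15 without Dicer. That is 2.01-fold higher (limma adjusted p = 0.000547), a call that held without each array. Jarid2 (0.45), Rbbp7 (0.34) and Rbbp4 (-0.28) were also called. Aebp2 alone of them passed against a 1.2-fold minimum. Jarid2 failed on dropping wild-type array 2 or a Dicer-deficient array (limma adjusted p from 0.0729 to 0.176). Rbbp7 failed on dropping any but wild-type array 1 (0.0799 to 0.186). Rbbp4 failed on dropping any but wild-type array 3 (0.0984 to 0.156), and also under both other scalings. The catalytic Ezh2 had a change of -0.06 (limma adjusted p = 0.702).

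Genes that Polycomb complexes are known to silence in ES cells were mostly without a call, as were most of all genes. Of 45 measured developmental regulators, 4 rose and 1 fell, 11.1% against 17.1% of all genes, and 18 had means below the median of all probe sets in both genotypes. In the refit of genes whose mean over the 5 arrays lay above that median, 7 of 26 regulators and 3660 of 11189 genes were called. Pax6 and Msx2 were among those 7 although their wild-type means lay under the median. They entered the refit through their Dicer-deficient values, so it gives no separate support to these rises. Of the 45 regulators, 23 had both means above the median. Pax6, a neural and eye regulator, read 5.09, 5.21 and 5.24 in wild type and 6.21 and 6.06 without Dicer (change 0.955, limma adjusted p = 0.000501), and kept its call without each array. In wild-type cells its mean of 5.18 is dim, under the 5.404 median of the probe sets. Msx2 (0.56), Gsc (0.51) and Evx1 (0.44), regulators of limb, gastrula and spinal cord development, also rose, and Olig2, of motor neuron and oligodendrocyte fate, fell (-0.45). These 4 were less firm, and none of them passed against a 1.2-fold minimum. Msx2 and Evx1 had wild-type means of 5.32 and 4.99, also under the median of the probe sets. Gsc failed on dropping wild-type array 2 or a Dicer-deficient array (limma adjusted p from 0.0633 to 0.186), and Evx1 on dropping any array (0.0596 to 0.203). Msx2 failed on dropping any but wild-type array 2 (0.114 to 0.293) and with array weights (0.0688), and Olig2 any but wild-type array 3 (0.142 to 0.306). The list held 2, 2, 1 and 1 calls on dropping wild-type array 1, wild-type array 2 and the Dicer-deficient arrays. Of 37 Hox genes, the classic Polycomb targets, 0 were called by limma and 2 had an unadjusted p under 0.05, and 29 had both means below the median of all probe sets.

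Of 15 measured germline genes reported to be silenced by the PCGF6 complex, 4 fell and 0 rose in limma (26.7% called, against 17.1% of all genes). At an unadjusted p under 0.05, 2 were higher and 5 lower. The median change was -0.17, and 12 changes were negative. Rises were called under other settings: 2 with array weights, 1 with the filter on dim genes and 1 without wild-type array 3. With the filter on dim genes, 3 of the 4 germline genes left were called, against 3660 of 11189 genes. Zcwpw1, a histone mark reader of meiosis, read 6.46, 6.34 and 6.18 in wild type and 5.60 and 5.63 without Dicer. Stag3, a meiotic cohesin subunit, read 6.71, 6.68 and 6.50 against 6.09 and 5.66. Neither gene overlapped between genotypes, and the log2 changes were -0.71 and -0.755 (limma adjusted p = 0.00272 and 0.00824). Mael and Stk31 were also called, from wild-type means of 5.26 and 4.24 under the probe sets' median, and 11 of the 15 genes had both means under it. With Dicer-deficient array 1 or 2 dropped, Zcwpw1 had a limma adjusted p of 0.0728 or 0.065. Stag3 failed on dropping wild-type array 1 (0.055), wild-type array 2 (0.0626) or Dicer-deficient array 2 (0.0864). Mael and Stk31 failed on dropping any but wild-type array 3 (limma adjusted p from 0.0984 to 0.249). Zcwpw1 alone passed against a 1.2-fold minimum. The list had 1, 1 and 1 calls without wild-type array 1, wild-type array 2 and Dicer-deficient array 1, and 0 without Dicer-deficient array 2.

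**Figure D4:**
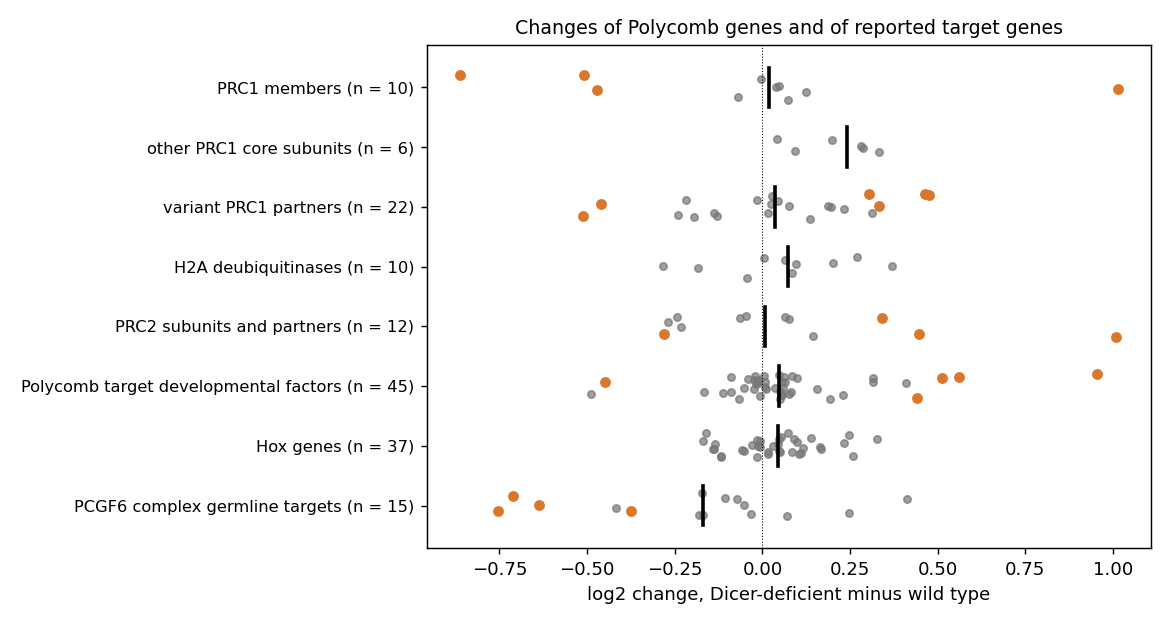
Log2 change, Dicer-deficient minus wild type (horizontal axis), of every measured gene in each list (rows, points spread vertically for legibility), with the list median as a black bar. Orange genes passed an adjusted p of 0.05. The members split into 1 rise and 3 falls around a median of 0.0175, and the PCGF6 complex germline targets have a median of -0.17.

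Some markers of pluripotent state also differed between genotypes, and their part in the changes of the called members was not tested. Of 10 ES cell markers, Esrrb, Klf4 and Tdgf1 fell, with log2 changes of -0.72, -0.95 and -0.70, and the other 7 were not called. That is 30.0% called, against 17.1% of all genes. In the refit of genes above the median of all probe sets, 3 of these 10 and 3660 of 11189 genes were called. The mean log2 signal over this list ran from 10.49 to 10.69 on the wild-type arrays and was 10.27 and 10.51 on the Dicer-deficient ones, which overlap. Of 10 markers of the primed epiblast, the next embryonic stage, Otx2, Dnmt3b, Cdh2, Pim2 and Wnt8a rose (50.0% called, against 17.1% of all genes). Of these 10 markers, 9 had both means above the median of all probe sets. In the refit of genes above that median, 5 epiblast markers rose and 1 fell, and 3660 of 11189 genes were called. The other 5 were not called. Dnmt3a (-0.37, arrays not overlapping) and Lef1 (-0.345, overlapping) were lower, and Fgf5, Pou3f1 and Sox3 changed by 0.07, 0.04 and 0.125. With median centring or the filter on dim genes, 1 epiblast marker was called lower. The mean over that list ran from 6.56 to 6.78 in wild type and was 6.84 and 7.0 without Dicer. Without each array in turn the ES cell list held 1 to 3 falls, with 1 where the second array of either genotype was dropped. The epiblast list held 1 to 4 rises, with 3 without Dicer-deficient array 1 and 1 without array 2. Against a 1.2-fold minimum, 1 ES cell marker and 2 epiblast markers passed. Of 10 feeder fibroblast markers only Vim was called, higher, and of 10 primitive endoderm markers 0 were called by limma, with 1 at an unadjusted p under 0.05. Vim failed on dropping Dicer-deficient array 2. Of 9 neural progenitor markers, Pax6 and Map2 rose and Olig2 fell (33.3% called, against 17.1% of all genes). The neural list held 1 to 4 calls without each array in turn, with 1 where wild-type array 2 or a Dicer-deficient array was dropped.

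The genes most like the 2 largest changes were sought by the root mean square difference of values centred on each gene's mean over the 5 arrays. Nearest to Pcgf5 were Tmem38b (0.0279 log2 units), Ank (0.0476) and Pax6 (0.051), which rose by 1.02, 0.98 and 0.955. Pax6 is also one of the Polycomb target genes above. Nearest to Pcgf2 were Mfsd13a (0.0371), Baz2a (0.0407) and Faap24 (0.056), with changes of -0.81, -0.825 and -0.82. The 5 arrays share the step between genotypes, for which Pcgf5 and Pcgf2 were taken.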

How the data were processed

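RNA from asynchronous wild-type (3) and Dicer-deficient (2) ES cell cultures was labelled by the Affymetrix whole-transcript protocol and hybridised to 1 array each, per the labels' protocols. The authors deposited a normalized log2 signal for 35556 probe sets. Their background correction, summarisation, normalization and log base are not given in the sources used here, and the log2 scale was read from the range of the values. A different base would rescale the changes and the 1.2-fold minimum of treat, and so the p-values from treat.

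Names came from the platform annotation, which can be old: 21789 probe sets had 1 symbol, 1621 several and 12146 none. Each symbol was represented by its brightest probe set on average across the 5 arrays, with no filter on low signal. All 10 members had 1 probe set. Dicer-deficient was compared with wild type by limma (lmFit and eBayes, 3 residual and 4.54 prior degrees of freedom), Benjamini-Hochberg adjusted over 19938 genes. Standard errors are limma's moderated ones. With only 10 ways to split the arrays, an exact two-sided permutation p reaches 0.1 at best, so none is given. The fit was run on simulated data with independent noise, to check only that its mean estimates recovered planted log2 changes. Differences between lines, cultures or batches were not simulated.

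The members and gene lists were chosen with earlier results of these data known. Named are the members, Dicer1, the called genes of each list (the 4 largest where over 5 were called, to which Auts2 and Cbx3 were added after their values were seen) and the 3 genes nearest in profile to each of Pcgf5 and Pcgf2. Uncalled list genes given as examples were also chosen after their values were seen. Alternatives were another quantile normalization, median centring, a filter on dim genes, an intensity trend, array weights, averaging all probe sets of a gene, treat against 1.2-fold, a block for the replicate number, and fits that drop 1 array. Start windows were found for 8 of the 10 members by symbol in RefSeq sequences of GRCm38.p6. Work used R 4.3.3, limma 3.58.1, Python 3.11.15, pandas 2.3.3, numpy 2.4.6 and matplotlib 3.10.9.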

Additional observations from a re-analysis of the deposited data

How the results depend on the processing

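Pcgf5 and Pcgf2 kept their direction and call under all alternatives run, with changes from 0.93 to 1.09 and from -1.03 to -0.69. Cbx7 and Phc1 kept their direction in all. The members held 2 calls against a 1.2-fold minimum and with the replicate block, and 2 to 4 without each array in turn. All genes had 3404 calls, 1144 against the 1.2-fold minimum, 894 with the block and 972 to 2953 without each array. With the block, Pcgf5 and Pcgf2 passed narrowly (limma adjusted p = 0.0486 and 0.0465), while Cbx7 and Phc1 had limma adjusted p of 0.0617 and 0.0679. In that setting the ES cell markers had 1 call, and the epiblast and fibroblast markers 0. The labels give the arrays only shared numbers, and the difference of array 1 from array 2 correlated at 0.037 between genotypes over genes, so the arrays were not treated as paired.

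Partner proteins had 6 calls, 0 in both of those settings and 0 to 5 without each array. PRC2 had 4, then 1 and 1, and 1 to 4. Developmental targets had 5, then 1 and 1, 8 with array weights, and 1 to 6. Germline targets had 4, then 1 and 2, and 0 to 5. From 0 calls, 1 appeared among other core subunits after quantile normalization, among the primitive endoderm markers after quantile normalization, with the intensity trend or the filter on dim genes, among the deubiquitinases with median centring, array weights or the filter on dim genes, and among the Hox genes with quantile normalization, median centring, array weights or without wild-type array 3 (0 to 1). The fits without 1 array or with a block have fewer residual degrees of freedom, and treat sets a stricter hypothesis; other causes were not tested.

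Of the 6 uncalled members, 4 turned sign under some setting, while Pcgf3 and Cbx2 did not. Pcgf1 was 0.030 with array weights, 0.010 with the block and -0.165 to 0.010 without each array. Pcgf6 was 0.019 after quantile normalization, 0.012 with array weights and -0.060 to 0.050. Rnf2 was -0.035 with the block and -0.035 to 0.153, and Ring1 ran from -0.005 to 0.093. Signal over background was not measured, which limits what can be said of the dim target genes.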
